A study of Mus musculus with 2 samples.

Results

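The genes described here are the matrix proteases of the MMP, ADAM and ADAMTS families and their inhibitors, the TIMPs. They were chosen by symbol alone (Mmp, Timp, Adam or Adamts followed by a number), which gave 72 of the 31053 genes in the files: 22 MMPs, 4 TIMPs, 27 ADAMs and 19 ADAMTS genes. The study cultured dissociated dorsal root ganglia (DRG), the clusters of sensory neuron cell bodies beside the spinal cord, and read their RNA cell by cell. Ganglia from cervical, thoracic and lumbar levels of 2-week-old SWISS mice of both sexes were digested with collagenase and dispase, grown on laminin for 3 days without injury or drug, and detached with trypsin. There were 2 libraries, A and B, of this 1 condition, and the sources do not say whether they came from separate cultures or mice, so that p-values measure only the spread between 2 libraries, which may be technical. The cells had been through enzymes before and after culture, there was no uncultured group, and all comparisons are therefore between kinds of cells within the same dishes.

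MMPs are zinc-dependent enzymes that cut collagens and other proteins of the extracellular matrix. Most are secreted as inactive precursors, and a few, the membrane-type MMPs, are held at the cell surface. ADAMs are membrane proteins, some of which cut the outer part of other membrane proteins free, while ADAMTS enzymes are secreted and cut proteoglycans such as versican and aggrecan or trim procollagen. TIMPs bind the active site of these enzymes, and TIMP2 has a second role, since together with the membrane-type enzyme MMP14 it brings the precursor of MMP2 to the cell surface for activation. In the DRG, collagens and laminins surround each neuron with its envelope of satellite glia, and proteases of these families are known to be induced after nerve injury.

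Library A held 5175 cell barcodes and 40355401 UMIs (unique molecular identifiers, each counting 1 captured RNA molecule), and library B held 5773 barcodes and 38945848 UMIs. The 10730 cells with at least 200 genes and at most 10% mitochondrial UMIs fell into 4 classes, named from marker genes. These were 394 fibroblast-like, 9445 glia-like, 82 macrophage-like and 809 neuron-like cells, called fibroblasts, glia, macrophages and neurons below. Their median depths differed, with 11494 UMIs a cell in fibroblasts, 4723 UMIs in glia, 8935 UMIs in macrophages and 28344 UMIs in neurons. The libraries shared 8 barcodes, and no doublets were removed, because the doublet caller marked only 1 cell in A and 3 in B. Levels are in CPM, the UMIs of a gene summed over all cells of a class in 1 library and scaled to the total UMIs of that class and library. A CPM is a share of the RNA of its class, so that less of 1 RNA and more of the others cannot be told apart.

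Of the 72 genes, 60 had at least 1 UMI and 12 had none in any kept cell, which allows up to 3 UMIs or 0.0385 CPM over all cells. The 12 were Mmp1b, Mmp7, Mmp20, Mmp21 and 8 ADAMs. The members had 198355 UMIs in all, of which the 4 TIMPs held 98749, the ADAMs 41722, the ADAMTS genes 32708 and the MMPs 25176. A total of 28 members reached 20 CPM in both libraries in at least 1 class or glial cluster, and 35 had under 100 UMIs.

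The families were spread differently over the cells. Summed over its genes, the MMP family had a mean of 974 CPM in fibroblasts, 333 CPM in glia, 196 CPM in macrophages and 162 CPM in neurons. The TIMP sums stood in the same order, at 2211 CPM in fibroblasts, 1479 CPM in glia, 976 CPM in macrophages and 549 CPM in neurons. The ADAM family had another order, with 640 CPM in glia, 541 CPM in macrophages, 341 CPM in neurons and 238 CPM in fibroblasts. The ADAMTS sums were 575 CPM in glia, 300 CPM in fibroblasts, 112 CPM in macrophages and 73.1 CPM in neurons. Fibroblasts thus stood first for the MMPs and TIMPs and last for the ADAMs, while glia stood first for both ADAM families. A single gene made up most of each leading sum outside the MMPs. Timp1 had a mean of 1406 CPM in fibroblasts. In glia, Adam10 had 430 and 426 CPM (A and B), and Adamts5 had a mean of 373 CPM. The leading class of the TIMP, ADAM and ADAMTS sums therefore rested on 1 gene each. The libraries differed most, in ratio, in the ADAMTS sum of macrophages, with 138 CPM in A and 85.1 CPM in B. Of the 28 members at 20 CPM or more, 10 had their highest mean level in fibroblasts, 10 in glia, 5 in neurons and 3 in macrophages. A member could reach 20 CPM through its highest class alone, and no such split of all genes is given here. The counts therefore only describe the levels.

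**Figure D1:**
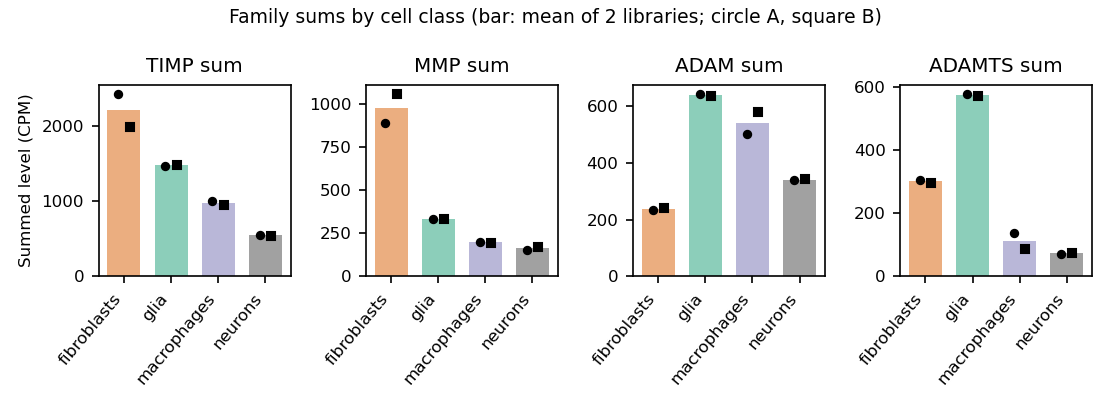
Summed level of the MMP, TIMP, ADAM and ADAMTS genes in fibroblasts, glia, macrophages and neurons, in CPM, with a point for each library and a bar at the mean of 2 libraries. The MMP and TIMP sums stand first in fibroblasts (974 and 2211 CPM) and the ADAM and ADAMTS sums in glia (640 and 575 CPM).

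Each class was tested against the mean of the other 3 with edgeR's quasi-likelihood test on the counts summed per library and class. The 42 members that passed the count filter were tested among 11948 genes, and p-values were adjusted over all of them. Classes were formed without the members, the related genes and the markers, and the genes used to form classes were not tested, yet all come from the same cells. In fibroblasts 21 of 42 members were higher, against 23.5% of all genes tested, and 12 were lower, against 16.3%. Their median log2 difference was 1.23, against 0.01 for all genes. In glia 19 members were higher, against 31% of all genes, and 8 were lower, against 22.8%, with a median of 0.76 against 0.07 for all genes. In macrophages 7 were higher, against 11.3% of all genes, and 4 lower, against 8.21%, with a median of -0.52 against -0.14 (all genes). In neurons 11 were higher, against 37% of all genes, and 19 were lower, against 29.5%, with a median of -1.05 against 0.11 (all genes). In fibroblasts both shares thus stood above the background, and neurons had fewer higher and more lower calls than it. In macrophages both shares, and in glia the share of lower calls, stood near the background. These 4 contrasts share their classes and are not independent of each other. With library totals in place of TMM scaling, the split of all genes moved to 2256 higher and 2678 lower in fibroblasts (21 and 14 members), 5895 and 1333 in glia (20 and 5 members), and 1108 and 1568 in macrophages (6 and 8 members), where TMM gave 2811 and 1942, 3699 and 2721, and 1348 and 981. The median of all genes then lay at 0.43 in glia and -0.32 in macrophages, and the members' share of higher calls in glia, above the background with TMM, was no longer above it. DESeq2 gave 1598 higher and 720 lower in macrophages (7 and 3 members), and pooling the other cells into 1 group gave 4617 higher and 6211 lower in neurons (11 and 30 members), where the main test gave 4424 and 3524.

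For 22 of the 28 members at 20 CPM or more, the class with the highest level was higher than each other class, as was so for 46.6% of all genes at that level. The exceptions were Timp3, Adam9, Adam11, Adam17, Adamts9 and Mmp17, of which Timp3 and Mmp17 passed with library totals. Since the highest class was picked from the same counts, these numbers describe the levels.

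**Figure D2:**
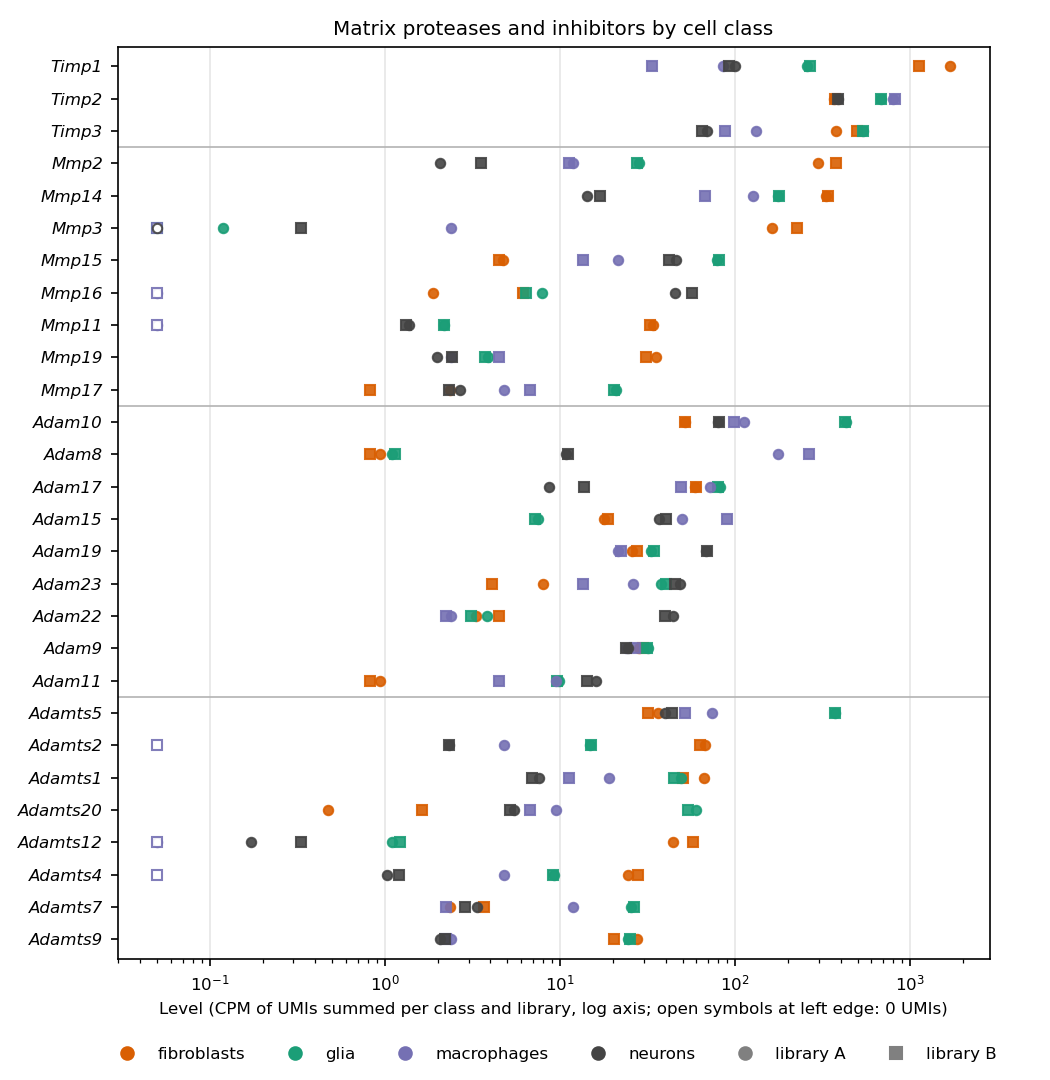
Level of each of the 28 members at 20 CPM or more in fibroblasts, glia, macrophages and neurons, in CPM on a log axis, with a circle for library A, a square for library B and open symbols at the left edge for 0 UMIs. The libraries lie apart for several genes in macrophages, the class with 82 cells, such as Timp1 at 85.6 and 33.6 CPM.

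The 4 TIMPs each had a pattern of their own. Timp1, an inhibitor of most secreted MMPs that is induced in many injured tissues, had 1684 CPM in A and 1128 CPM in B in fibroblasts. It had 256 and 269 CPM in glia, 85.6 and 33.6 CPM in macrophages, and 100 and 92.6 CPM in neurons. Both fibroblast values lay above every value of the other classes, and the log2 difference from the mean of the other classes was 3.76 ± 0.09 (SE, adjusted p = 2.13e-25).

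Timp2, the partner of MMP14 in the activation of MMP2, was highest among whole classes in macrophages, with 792 and 822 CPM (A and B). It had 683 and 683 CPM in glia, 368 and 370 CPM in fibroblasts, and 385 and 384 CPM in neurons. Glial cluster 0, described below, had 793 and 790 CPM. All 82 macrophages held at least 1 Timp2 UMI. The log2 difference of macrophages from glia was 0.64 (adjusted p = 1.82e-08) with TMM scaling and 0.24 with library totals. Timp2 overlaps Cep295nl on the same strand, so that its reads could be split between them.

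Timp3, which binds to the matrix and also inhibits ADAM17 and aggrecan-cutting ADAMTS enzymes, had 534 and 533 CPM in glia and 378 and 494 CPM in fibroblasts, against 131 and 87.4 CPM in macrophages and 69.0 and 64.6 CPM in neurons. Whether glia and fibroblasts differed depended on the scaling: the log2 difference of glia from fibroblasts was -0.10 with TMM (adjusted p = 0.272) and 0.29 with library totals (adjusted p = 0.00114). Neurons were lower than the mean of the other classes by 2.09 on the log2 scale (SE 0.12, adjusted p = 7.05e-16). Timp4 had only 24 UMIs in all cells. Timp1, Timp3 and Timp4 lie inside the genes of synapsins on the opposite strand (Syn1, Syn3 and Syn2), Timp1 at chrX:20870166-20874735 and Timp3 at chr10:86300372-86349506 of GRCm38.

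The gelatinase MMP2 and its activator MMP14 both had their highest level in fibroblasts. Mmp2 (chr8:92827291-92853420) had 298 CPM in A and 379 CPM in B in fibroblasts, against 28.1 and 27.6 CPM in glia, 11.9 and 11.2 CPM in macrophages and 2.07 and 3.51 CPM in neurons. The fibroblasts' difference of 5.29 ± 0.11 (log2, SE, adjusted p = 6.63e-27) was far larger than the spread between libraries. Mmp14 (chr14:54431612-54445364) had 332 and 340 CPM in fibroblasts, 176 and 177 CPM in glia, 126 and 67.2 CPM in macrophages and 14.2 and 16.8 CPM in neurons. Both classes with most of it passed the test, fibroblasts at 2.55 ± 0.08 and glia at 0.79 ± 0.07 (log2, SE), with adjusted p of 4.94e-22 and 1.24e-10. The other gelatinase, Mmp9, had 7 UMIs in all cells.

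After each cell was thinned to 2000 UMIs, which left out 6 fibroblasts, 181 glia and 42 neurons, the share of cells with an Mmp14 UMI was 52.9% in A and 47.7% in B among fibroblasts. It was 28.6% and 29.0% among glia and 4.11% and 5.10% among neurons. The unthinned shares were 88.5% and 90.5% of fibroblasts, 56.4% and 54.3% of glia, and 23.7% and 24.3% of neurons, the deepest class. For Mmp2, thinned shares were 36.0% and 41.2% of fibroblasts, 4.95% and 5.47% of glia and 0.242% and 1.13% of neurons, where unthinned ones were 69.0% and 74.1%, 11.8% and 10.9%, and 5.52% and 7.22%. Fibroblast markers summed to 8.67% of their fibroblast level in glia, and Mmp2 in glia stood at 8.23% of its own fibroblast level, Timp1 at 18.7% and Mmp14 at 52.5%. Some leading fibroblast genes stood lower outside their class than the sum of markers did. Dcn had 4956 CPM in fibroblasts and 17.3 CPM in all other cells, and Lum had 950 and 2.58 CPM. Which genes of the sum glia express themselves was not tested, nor was the part of fibroblast RNA in these glial values.

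Mmp3 and Mmp13, a stromelysin and a collagenase, belong to a run of 9 Mmp genes on chromosome 9 (chr9:7272514-7699585) that also holds Mmp7, Mmp8, Mmp10, Mmp12, Mmp20, Mmp27 and Mmp1b. Of these 9 genes 6 had a UMI, 1473 UMIs in all. Promoters of the run are known for a TATA box and for sites of AP-1, the Fos and Jun factor that is active in stressed cells. The letters TGANTCA, the core of an AP-1 site, stood on either strand within 250 bases before the start in 7 of the 9 genes, in 4 of the 34 other members in RefSeq's table, and in 7.82% of all 27025 genes. TATAAA on the gene's strand was found in 9 of the 43 members in the table and in 8.94% of all genes. The motifs share no base in any of these windows. The last 110 bases before the start are shown for 4 genes of the run, chosen after their values were seen. Mmp3 and Mmp13 had nearly all their UMIs in fibroblasts, and Mmp12 had most of its UMIs in neurons and macrophages. Mmp10, which lies beside Mmp3, had only 4 UMIs in all cells. RefSeq's table held 7 members at 20 CPM or more with their highest level in fibroblasts. Of these 7, only 1, Mmp3, had the AP-1 letters. A link between the letters and the levels was not tested. Capitals mark TGANTCA and TATAAA, all are on the plus strand of GRCm38 (RefSeq), and a match of letters is no proof of a bound site.
Mmp3, chr9:7445712-7445821: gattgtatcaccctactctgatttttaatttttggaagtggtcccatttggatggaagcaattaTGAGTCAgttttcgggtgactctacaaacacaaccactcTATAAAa
Mmp13, chr9:7272404-7272513: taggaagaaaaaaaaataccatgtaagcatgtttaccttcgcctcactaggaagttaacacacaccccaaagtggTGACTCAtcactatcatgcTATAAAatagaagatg
Mmp10, chr9:7502232-7502341: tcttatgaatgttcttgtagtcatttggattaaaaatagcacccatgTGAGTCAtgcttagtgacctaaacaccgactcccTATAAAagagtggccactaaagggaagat
Mmp12, chr9:7347264-7347373: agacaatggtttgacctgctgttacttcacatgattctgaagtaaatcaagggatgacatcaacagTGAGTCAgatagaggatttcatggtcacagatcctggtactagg
In Mmp3 the AP-1 letters begin 46 bases and the TATA letters 7 bases before the start, and in Mmp13 they begin 35 and 16 bases before it. The Mmp12 window stands before the second of its annotated starts, and the window before the first start holds neither motif.

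Mmp3 was found almost only in fibroblasts, at 163 CPM in A and 225 CPM in B. It had 2.38 and 0 CPM in macrophages, 0 and 0.329 CPM in neurons and 0.118 and 0.0380 CPM in glia. The log2 difference was 9.71 ± 0.19 (SE, adjusted p = 4.18e-27). Fibroblast markers in glia summed to 8.67% of their fibroblast level, while Mmp3 in glia stood at 0.0402% of its own. Mmp13 had 10.8 and 29.0 CPM in fibroblasts and no UMI in any other class. Its level pooled over both libraries, 20.6 CPM, was set against a floor of 3 UMIs over both libraries. It stood 354-fold above that floor in glia, 142-fold above it in neurons and 5.94-fold above it in macrophages. Library A alone, with the lower level, would give smaller folds.

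Within the fibroblasts these 2 proteases were in few cells. Mmp3 had 897 UMIs in 59 of the 394 fibroblasts, 30 of them in A and 29 in B, and 4 cells held 50% of the UMIs. A single cell of library B held 244 UMIs, or 27.2%, and without it the levels were 163 CPM in A and 126 CPM in B. Mmp13 had 94 UMIs in 24 cells, 12 in each library, and 17 cells held both genes. Mmp3-holding cells were somewhat deeper, with a median of 14837 UMIs against 11216 UMIs in fibroblasts with neither gene. Mmp2 was spread more widely, with a UMI in 283 fibroblasts and 50% of its UMIs in 69 of them, and so was Mmp14, in 353 cells with 50% in 93. Timp1 was in 348 fibroblasts, but 32 of them held 50% of its UMIs. After thinning, 8.72% of fibroblasts in A and 8.33% in B had an Mmp3 UMI, against 17.2% and 13.2% without thinning, and 0.0229% and 0% of thinned glia did.

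**Figure D3:**
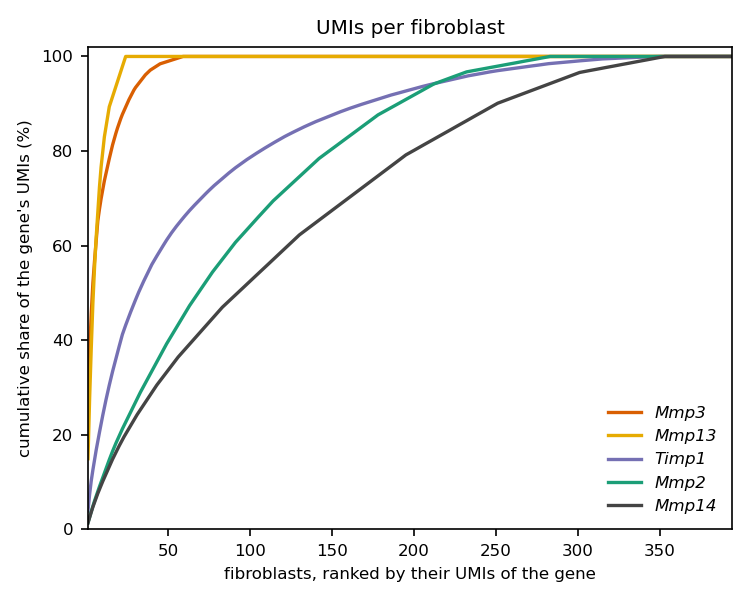
Cumulative percent of the UMIs of Mmp3, Mmp13, Timp1, Mmp2 and Mmp14 over the 394 fibroblasts of both libraries, ranked for each gene from the cell with most UMIs. The Mmp3 line reaches 50% at 4 cells and the Mmp13 line at 5 cells, where the Timp1, Mmp2 and Mmp14 lines need 32, 69 and 93 cells.

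Mmp11, the stromelysin-3 known from fibroblasts around tumours, had 33.9 and 32.7 CPM in fibroblasts (A and B), against 2.16 and 2.17 CPM in glia, 1.38 and 1.32 CPM in neurons and no UMI in macrophages. Mmp19 had 35.3 and 31.1 CPM in fibroblasts and at most 4.48 CPM in any library of another class. Both genes were higher in fibroblasts than in each other class.

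Mmp12, the macrophage elastase, had its highest mean level in macrophages, but most of its UMIs came from neurons. It had 16.6 CPM in A and 69.5 CPM in B in macrophages, 15.1 and 22.6 CPM in neurons, 0.942 and 0 CPM in fibroblasts and 0.315 and 0.266 CPM in glia. The macrophage value rested on 38 UMIs in 9 of 82 cells. In neurons 381 UMIs came from 126 of 809 cells, and 1 cell of library B held 62 of them, or 16.3%. Without that cell the neurons had 15.1 CPM in A and 15.9 CPM in B. Neurons passed the test at 3.43 ± 0.27 and macrophages at 5.18 ± 0.50 (log2, SE, adjusted p = 1.24e-12 and 9.48e-10).

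The 8 macrophage markers summed to 0.417% of their macrophage level in neurons. In the 386 neurons without a single UMI of these markers, Mmp12 stood at 13.8 CPM in A and 17.6 CPM in B, from 117 UMIs in 46 cells. The 43 neurons with more than 3 marker UMIs had 7.43 and 138 CPM. A cell with no UMI of these markers may still hold macrophage RNA, and its part in the Mmp12 level was not tested.

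The transmembrane MMPs other than Mmp14 lay outside the fibroblasts. Mmp15 had 78.4 and 81.0 CPM in glia (A and B), 46.1 and 41.6 CPM in neurons, 21.4 and 13.4 CPM in macrophages and 4.71 and 4.49 CPM in fibroblasts. Both glia (2.03 ± 0.13, adjusted p = 1.27e-14) and neurons (1.29 ± 0.15, adjusted p = 8.97e-09) were higher than the mean of the others on the log2 scale. Mmp16 had 45.5 and 56.6 CPM in neurons, against 7.87 and 6.39 CPM in glia, 1.88 and 6.13 CPM in fibroblasts and no UMI in macrophages. Mmp24, known as a neuronal membrane-type enzyme, had 17.3 and 15.5 CPM in neurons and at most 0.409 CPM in any library of another class, with a UMI in 259 of 809 neurons.

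The pair of MMPs with a lipid anchor differed in the class that held them. Mmp17 had 20.8 and 20.3 CPM in glia, against 4.75 and 6.72 CPM in macrophages, 2.67 and 2.31 CPM in neurons and 2.35 and 0.817 CPM in fibroblasts. Glia were higher by 2.50 ± 0.21 (log2, SE, adjusted p = 8.57e-12), although the difference from macrophages alone did not pass (adjusted p = 0.0515, and 0.00658 with library totals). Mmp25 had 93 UMIs, all in neurons, at 4.56 and 4.39 CPM, which is at least 77.3-fold higher than in glia, 6.84-fold higher than in fibroblasts and 1.3-fold higher than in macrophages.

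Of the 2 ADAMs best known as sheddases, Adam10 was a glial gene and Adam17 was low in neurons. Adam10, a sheddase of Notch and N-cadherin, had 430 and 426 CPM in glia (A and B), against 112 and 98.6 CPM in macrophages, 80.2 and 81.1 CPM in neurons and 51.8 and 51.9 CPM in fibroblasts. The glial difference was 2.13 ± 0.06 (log2, SE, adjusted p = 1.79e-23). Adam17, which sheds TNF, had 82.1 and 79.2 CPM in glia, 71.3 and 49.3 CPM in macrophages, 58.8 and 60.1 CPM in fibroblasts and 8.61 and 13.7 CPM in neurons. For Adam17 only the difference of glia from neurons passed among the 3 glial pairs with TMM, and that from fibroblasts passed too with library totals (adjusted p = 0.00234). Adam9 was the most even of the 28, between 23.8 and 31.8 CPM in every class and library, and passed in no pair with glia under TMM, although glia passed over neurons with library totals (adjusted p = 0.000208).

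Adam8 and Adam15 had their highest class level in macrophages. Adam8, a protease of leukocytes, had 176 CPM in A and 262 CPM in B in macrophages, against 10.8 and 11.1 CPM in neurons, 1.10 and 1.14 CPM in glia and 0.942 and 0.817 CPM in fibroblasts. The difference was 6.80 ± 0.23 (log2, SE, adjusted p = 6.38e-21), and 61 of the 82 macrophages held a UMI. Adam8 in neurons stood at 5.01% of its macrophage level, beside 0.417% for the macrophage markers. In neurons without a marker UMI it had 8.87 and 12.1 CPM, and Adam15 had 38.76 and 40.65 CPM. Most Adam15 UMIs came from neurons, with 427 in A and 367 in B, against 21 and 40 in macrophages. Adam15 had 49.9 and 89.6 CPM in macrophages, 36.8 and 40.3 CPM in neurons, 17.9 and 18.8 CPM in fibroblasts and 7.52 and 7.19 CPM in glia, the class that was lowest, by 2.69 on the log2 scale (SE 0.14, adjusted p = 3.1e-16).

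Among whole classes, neurons were highest in the ADAMs that lack protease activity and act as receptors of the LGI proteins. Single glial clusters, described below, lay above the neurons in Adam11 and Adam23. Adam22, which anchors LGI1 at synapses, had 44.2 and 39.5 CPM in neurons, against 3.82 and 3.08 CPM in glia, 3.30 and 4.49 CPM in fibroblasts and 2.38 and 2.24 CPM in macrophages. The neuronal difference was 3.76 ± 0.17 (log2, SE, adjusted p = 5.92e-18). Adam23 had 48.6 and 45.1 CPM in neurons and 37.7 and 40.1 CPM in glia, against 26.1 and 13.4 CPM in macrophages and 8.0 and 4.09 CPM in fibroblasts. Neurons exceeded glia in it by 0.57 (log2, adjusted p = 0.00695), or by 0.27 with library totals. Adam11 had 15.9 and 14.2 CPM in neurons, 9.92 and 9.62 CPM in glia and 9.51 and 4.48 CPM in macrophages, and the difference of neurons from macrophages did not pass (adjusted p = 0.128).

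The LGI ligands of these receptors were spread over 3 classes. Lgi4, a glial signal needed for myelination, had 183 and 181 CPM in glia, Lgi2 had 128 and 114 CPM in fibroblasts, and Lgi1 had 23.8 and 24.5 CPM in neurons. The active protease Adam19, which cleaves neuregulins, was also a neuronal gene, with 67.8 and 69.4 CPM in neurons, against 33.0 and 34.2 CPM in glia, 25.9 and 27.4 CPM in fibroblasts and 21.4 and 22.4 CPM in macrophages (log2 difference 1.39 ± 0.10, SE, adjusted p = 7.96e-13). Adam12 and Adam33 reached at most 22.5 CPM, in fibroblasts. Adam33 had 17.4 and 22.5 CPM in fibroblasts, against 7.13 and 6.72 CPM in macrophages, from 3 UMIs in each library, and 0.258 and 0.329 CPM in neurons. It had no UMI in glia, which places it at least 347-fold higher in fibroblasts than there.

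The ADAMTS genes that cut aggrecan and versican were split between glia and fibroblasts. Adamts5 had 373 CPM in glia in A and in B, against 73.7 and 51.5 CPM in macrophages, 39.6 and 43.4 CPM in neurons and 36.2 and 31.9 CPM in fibroblasts. The glial difference was 2.71 ± 0.07 (log2, SE, adjusted p = 1.99e-24). Adamts20 had 59.7 and 53.6 CPM in glia, 9.51 and 6.72 CPM in macrophages, 5.42 and 5.16 CPM in neurons and 0.471 and 1.63 CPM in fibroblasts (log2 difference 3.6 ± 0.16, adjusted p = 2.82e-18). All glial values of both genes lay above all values of the other classes.

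Adamts1, which lies 53059 bases from Adamts5 on chromosome 16, was highest among whole classes in fibroblasts, with 65.9 and 50.3 CPM (A and B). It had 48.8 and 44.5 CPM in glia, 19.0 and 11.2 CPM in macrophages and 7.58 and 6.92 CPM in neurons. Glial cluster 0, described below, had 53.0 and 53.9 CPM. Fibroblasts exceeded glia by 0.69 (log2, adjusted p = 5.33e-05), and by 0.31 with library totals. Adamts4 had 24.5 and 27.8 CPM in fibroblasts, 9.21 and 9.09 CPM in glia, 4.75 and 0 CPM in macrophages and 1.03 and 1.21 CPM in neurons. Adamts9 had 27.3 and 20.4 CPM in fibroblasts and 24.4 and 24.9 CPM in glia, a difference that did not pass (adjusted p = 0.0887, and 0.742 with library totals), against at most 2.38 CPM in the other classes. The neighbours Adamts1 and Adamts5 thus had opposite leading classes.

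Among the other ADAMTS genes, Adamts2, which trims procollagen, had 66.8 and 62.9 CPM in fibroblasts, against 14.9 and 15.1 CPM in glia, 4.75 and 0 CPM in macrophages and 2.32 and 2.31 CPM in neurons. Adamts12 had 44.3 and 57.2 CPM in fibroblasts and at most 1.22 CPM in any library of another class. Adamts7 was the reverse, with 25.5 and 26.6 CPM in glia, 11.9 and 2.24 CPM in macrophages, 3.36 and 2.85 CPM in neurons and 2.35 and 3.68 CPM in fibroblasts.

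The 8 glial markers summed in neurons to 12.4% of their glial level, in fibroblasts to 7.29% and in macrophages to 19.6%. In neurons Adamts5 stood at 11.1% of its glial level, Timp3 at 12.5%, Adamts7 at 11.9%, Mmp17 at 12.1%, Adam17 at 13.9%, Adamts20 at 9.34% and Adamts9 at 8.63%. Adam10 stood at 18.9%, Mmp15 at 55.0% and Adam9 at 77.0% there. The neuronal values of the first group lay within a few points of the glial markers, and the part of glial RNA in them was not tested.

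The 44 related genes listed beside the members were plasminogen activators, convertases, cathepsins, other inhibitors and partners of the ADAMs, of which 35 were tested in the classes. This list was chosen with earlier results of these data known, so that its shares describe the listed genes only. In fibroblasts 21 were higher and 6 lower, against 23.5% and 16.3% of all genes tested. Glia had 16 higher and 11 lower, against 31% and 22.8%. Macrophages had 9 and 8, against 11.3% and 8.21%, and neurons had 9 and 22, against 37% and 29.5%. The plasminogen system, whose product plasmin can activate MMP precursors, was divided among classes. The inhibitor Serpine2 had 713 and 645 CPM in fibroblasts and 387 and 397 CPM in glia. The activator Plat had 176 and 185 CPM in fibroblasts and 125 and 124 CPM in glia. The other activator, Plau, had 57.0 and 101 CPM in macrophages, and its receptor Plaur had 57.2 and 67.5 CPM in neurons and 53.7 and 60.1 CPM in fibroblasts, against 2.48 and 3.54 CPM in glia. Lrp1, the receptor that clears many of these proteases, had 340 and 343 CPM in macrophages and 244 and 280 CPM in fibroblasts, against 44.3 and 43.4 CPM in glia and 12.8 and 15.7 CPM in neurons. Tspan15, which steers ADAM10, had 197 and 198 CPM in glia, the class with most Adam10, while Tspan17, of the same group, had 473 and 469 CPM in neurons.

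The glia formed 5 clusters, and the members differed among them. They are named by number and leading genes: cluster 0 (3469 cells; Apoe, Ndrg2, Fabp7), cluster 1 (1947 cells; Pbk, Cenpf, Ube2c), cluster 2 (1905 cells; Tgfbi, Igfbp5, Atf3), cluster 3 (1159 cells; Ung, Hells, Mcm3) and cluster 4 (965 cells; Fxyd6, Hist1h1b, Top2a). Clusters 1, 3 and 4 held 24, 19 and 14 cell cycle genes among their top 50 and are called proliferating, and clusters 0 and 2 held none. Median depth was 4043 UMIs a cell in cluster 0, 7467 in cluster 1, 3793 in cluster 2, 4781 in cluster 3 and 6913 in cluster 4. The satellite glia markers summed to 17914 CPM in cluster 0, 12305 in cluster 1, 6158 in cluster 2, 13444 in cluster 3 and 5213 in cluster 4.

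Each cluster was set against the mean of the other 4, over 10064 genes with 30 members among them. A total of 26 of the 30 members changed in at least 1 cluster, against 76.6% of all genes. In cluster 0, 10 members were higher and 8 lower, against 28.5% and 22.5% of all genes. In cluster 1, 5 were higher and 14 lower, against 24.4% and 24.6%. In cluster 2, 12 were higher and 6 lower, against 19.8% and 21%. In cluster 3, 5 were higher and 4 lower, against 12.5% and 5.72%. In cluster 4, 8 were higher and 9 lower, against 19.3% and 18.5%, and with library totals 7 and 11 members, as all genes moved to 1504 higher and 2434 lower where TMM gave 1946 and 1865. The median log2 differences of members were between -0.25 (cluster 1) and 0.16 (cluster 4), beside -0.01 for all genes in both.

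Among the 25 members at 20 CPM or more that were tested in glia, Mmp2 had the widest ratio between clusters. It had 89.7 and 76.8 CPM in cluster 2 (A and B) and 61.6 and 52.8 CPM in cluster 4, against 14.7 and 22.2 CPM in cluster 3, 10.2 and 9.79 CPM in cluster 0 and 9.18 and 8.83 CPM in cluster 1. Clusters 2 and 4, of which only cluster 4 is proliferating, lay above the others in both libraries. The differences were 2.26 ± 0.09 for cluster 2 and 1.63 ± 0.10 for cluster 4 (log2, SE, adjusted p = 8.45e-62 and 9.99e-36). Each of these clusters is part of the mean that the other was set against. The fibroblast markers summed to 2497 CPM in cluster 2, 2331 in cluster 4, 2300 in cluster 3, 1998 in cluster 0 and 1764 in cluster 1. After thinning, 15.1% and 13.7% of cluster 2 cells had an Mmp2 UMI, against 1.66% and 1.62% of cluster 0 cells, and 26.6% and 22.5% against 3.41% and 3.12% without thinning.

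Mmp17 and Adamts4 lay in the same pair of clusters. Mmp17 had 56.9 and 47.0 CPM in cluster 2 and 39.2 and 40.4 CPM in cluster 4, against 14.7 and 16.0 CPM in cluster 3, 11.5 and 8.69 CPM in cluster 1 and 8.19 and 9.28 CPM in cluster 0. It was higher by 1.78 ± 0.10 in cluster 2 and 1.36 ± 0.11 in cluster 4 (log2, SE, adjusted p = 9.64e-39 and 7.05e-23). Adamts4 had 23.1 and 22.3 CPM in cluster 2 and 13.9 and 17.8 CPM in cluster 4, against 10.8 and 4.25 CPM in cluster 3, 6.31 and 5.93 CPM in cluster 0 and 3.35 and 2.77 CPM in cluster 1. Adam23 was higher in these clusters too, by 0.38 and 0.51, while Adam11 was higher in cluster 2 (24.2 and 25.2 CPM, log2 difference 1.79 ± 0.15) and lower in cluster 4 (6.64 and 5.92 CPM, -0.63 ± 0.22). Adam23 had 53.0 and 48.5 CPM in cluster 2 and 51.6 and 53.8 CPM in cluster 4. These Adam23 values, and Adam11 in cluster 2, lay above the neurons of the same library.

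Adamts5 and Adamts20 had the opposite order. Adamts5 had 207 and 225 CPM in cluster 2 and 211 and 212 CPM in cluster 4, against 462 and 451 CPM in cluster 0, 416 and 428 CPM in cluster 1 and 412 and 436 CPM in cluster 3. It was lower by 0.72 on the log2 scale in both clusters (SE 0.04, adjusted p = 8.11e-44 and 1.66e-41). Adamts20 had 23.3 and 22.3 CPM in cluster 2 and 29.9 and 27.2 CPM in cluster 4, against 76.5 and 72.4 CPM in cluster 0, 63.9 and 60.3 CPM in cluster 1 and 81.5 and 64.0 CPM in cluster 3. The 3 clusters with more of these genes are also those with the higher sum of satellite glia markers. That sum stood at 24059 CPM in macrophages, above every glial cluster, so that it is not particular to satellite glia.

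**Figure D4:**
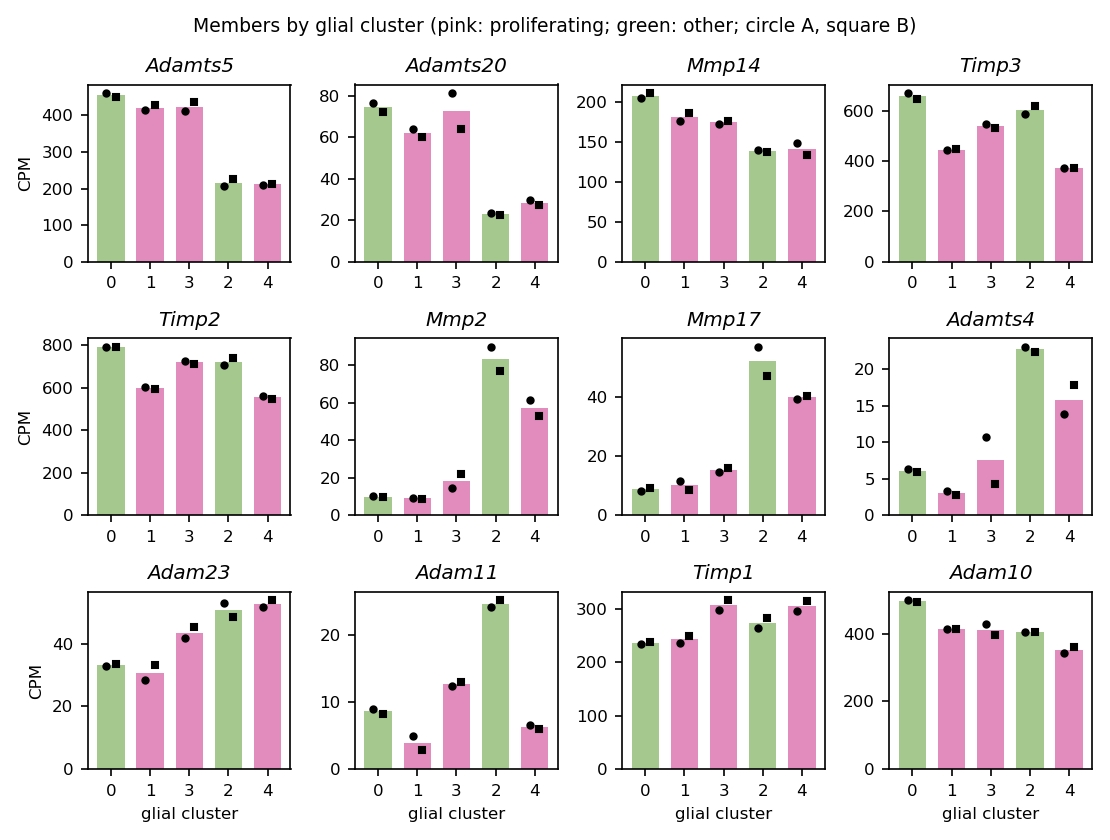
Level of 12 members in the 5 glial clusters, in CPM, with bars at the mean of 2 libraries (pink for proliferating clusters, green for the others) and a point for each library. Mmp2, Mmp17 and Adamts4 lie highest in clusters 2 and 4, where Adamts5 and Adamts20 lie lowest.

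The membrane-bound activator and the inhibitors changed less among glia. Mmp14 lay between 134 CPM (cluster 4, B) and 211 CPM (cluster 0, B), lower by 0.32 in cluster 2 and by 0.23 in cluster 4 on the log2 scale. Timp3 had 588 and 618 CPM in cluster 2 and 374 and 374 CPM in cluster 4, against 672 and 648 CPM in cluster 0, 549 and 531 CPM in cluster 3 and 444 and 447 CPM in cluster 1. It was higher in cluster 2 (0.31) and lower in cluster 4 (-0.51 ± 0.03, adjusted p = 9.86e-36). Timp1 was between 235 CPM (cluster 0, A) and 316 CPM (cluster 3, B). The clusters with most Mmp2 thus differed in Timp3.

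The proliferating clusters, with the same weight each, were set against the other clusters. Of the 30 members, 6 were higher, against 23.6% of all genes, and 10 were lower, against 28.6%, with a median of -0.06 against -0.04 for all genes. Higher were Timp1, Mmp23, Adamts2, Adamts5, Adamts10 and Adamts20, and lower were Timp2, Timp3, Mmp2, Mmp19, Adam10, Adam11, Adam15, Adamts1, Adamts4 and Adamts17. Both shares stood close to the background.

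Timp3 had 450 and 446 CPM in the 4071 proliferating glia (A and B), against 645 and 638 CPM in the 5374 other glia, a log2 difference of -0.48 ± 0.02 (SE, adjusted p = 4.96e-53). Timp2 had 622 and 608 CPM in proliferating glia, against 765 and 773 CPM in other glia (-0.27 ± 0.02, adjusted p = 3.28e-30). Adam10 had 401 and 396 CPM in proliferating glia, against 469 and 462 CPM in other glia (-0.18 ± 0.02, adjusted p = 1e-11). Adam11 had 6.92 and 5.85 CPM in proliferating glia, against 13.9 and 14.2 CPM in other glia (-1.09 ± 0.14, adjusted p = 8.92e-13). In all 4 genes both libraries of proliferating glia lay below both of the other glia.

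Among the genes that were higher, Timp1 had 264 and 281 CPM in proliferating glia, against 245 and 254 CPM in other glia (0.17 ± 0.03, adjusted p = 6.21e-08). Adamts10 had 9.62 and 9.53 CPM in proliferating glia, against 6.02 and 6.20 CPM in other glia (0.81 ± 0.17, adjusted p = 1.84e-05). Adamts5 and Adamts20 were called higher with each cluster given the same weight. Summed over cells, Adamts5 had 368 and 374 CPM in proliferating glia, against 380 and 372 CPM in other glia, and Adamts20 had 59.8 and 52.5 CPM in proliferating glia, against 59.5 and 54.9 CPM in other glia. Neither gene passed when the cells of each side were pooled. Mmp2, summed in the same way, had 22.4 and 23.0 CPM in proliferating glia, against 35.7 and 33.2 CPM in other glia (-0.43 ± 0.10, adjusted p = 3.53e-05), but cluster 4 lay far above clusters 1 and 3, and the sign turned when cells were chosen otherwise (0.30 with the cells of highest doublet score left out). Library totals also gave 6 higher and 10 lower members.

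**Figure D5:**
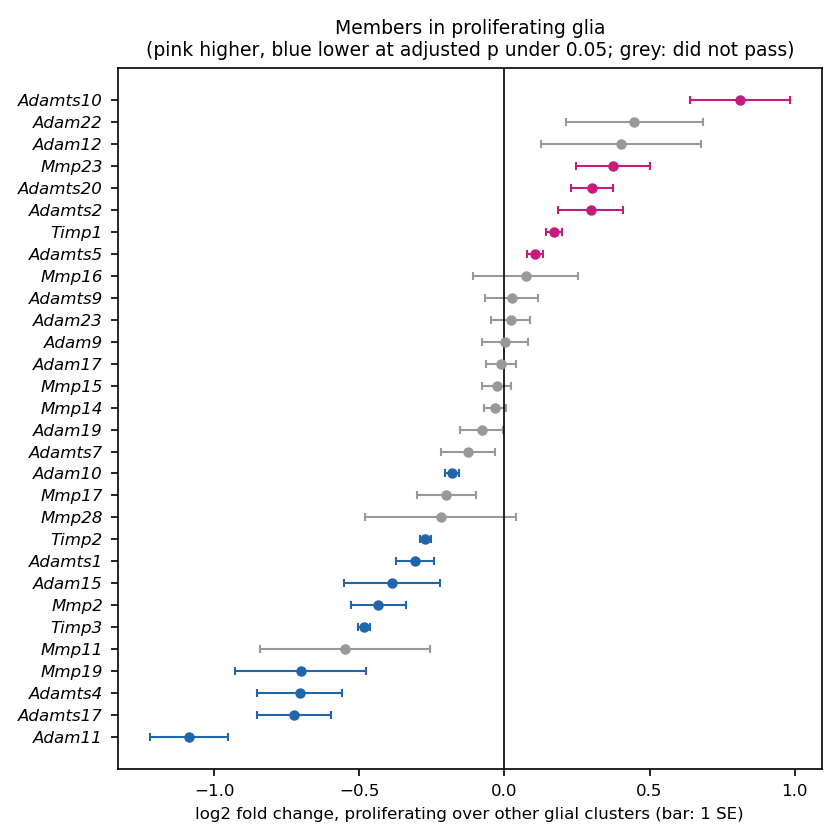
Log2 difference of proliferating glia from other glia for the 30 members tested in glia, with bars of 1 SE from the edgeR test (pink higher, blue lower, grey not past the threshold). Timp3, Timp2 and Adam10 lie below 0 with small errors, and Timp1 lies above 0.

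Of the 27 related genes tested in glia, 1 was higher in proliferating glia (Pcsk5), against 23.6% of all genes, and 18 were lower, against 28.6%. These shares too describe a list chosen with earlier results of these data known. Between clusters, Htra1 had 331 and 324 CPM in cluster 0, against 65.5 and 63.4 CPM in cluster 2, and Serpina3n had 126 and 124 CPM in cluster 0, against 12.5 and 10.1 CPM in cluster 2. Furin, a convertase that activates membrane-type MMPs and many ADAMs, had 72.6 and 71.3 CPM in cluster 2, against 39.9 and 42.0 CPM in cluster 0. Cluster 2 thus held less of these 2 genes and more Furin, Mmp2 and Mmp17 than cluster 0 in both libraries.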

How the data were processed

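Cells from cultured mouse DRGs gave 2 libraries, A and B, made with the 10x Chromium kit for 3' ends (version 3). The files the authors deposited hold raw counts of UMIs for each gene and barcode. The processing notes name Cell Ranger 3.0.2 and mm10, the files' header gives software version 3.1.0, and the paper describes Seurat 3.

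The members and gene lists here were chosen with earlier results of these data known. Cells with at least 200 genes and at most 10% mitochondrial UMIs were clustered in Seurat 5.3.0 under R 4.3.3 (2000 variable genes, 20 dimensions, resolution 0.18), with 205 genes (members, related genes and markers) held out of the variable genes. Scrublet (Scanpy 1.11.5) called under 0.5% of cells, so that it did not work on these libraries, and no cell was removed for it.

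Counts were summed per library and class or glial cluster and went into the quasi-likelihood test of edgeR 4.0.16, after filterByExpr and TMM scaling. The library was a block, because every group was taken from both libraries, which left 3 residual degrees of freedom for classes and 4 for glia. The Benjamini-Hochberg adjustment ran over all genes tested, with a threshold of 0.05. Genes used as variable genes were not tested. Floors of 3 UMIs cover counting error only, and folds over a floor take the level pooled over both libraries as exact. SEs are the log2 difference divided by the root of the F statistic of the edgeR test. That test shares its estimate of spread across genes. An SE can therefore be smaller than the gene's own spread between the 2 libraries. The edgeR step alone was run on simulated counts, with a small set of genes changed equally up and down. That setting does not cover the many changed genes and the shifts with scaling seen here. Clustering, thinning, floors and motifs were not part of it. A member was named with values where it reached 20 CPM in both libraries in a class or glial cluster, and a lower one where it passed a class test. Adamts10, Adamts17, Adam12, Adam33, Mmp12, Mmp13, Mmp23, Mmp24 and Mmp25 were named under the second part, and Mmp9, Mmp10 and Timp4 after their values were seen. Genome positions are from GENCODE M21 on GRCm38, in which all 72 members matched, and promoters from RefSeq's GRCm38.p6 table, which held 43 of them. For shares, each cell was first thinned to 2000 UMIs. Alternatives were other scalings, DESeq2 1.42.0, no filter, no library block, other mitochondrial limits and resolution, members not held out, doublet scores, pooled references and each library alone.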

Additional observations from a re-analysis of the deposited data

How the results depend on the processing

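Of 87 counts of members called under the alternatives, 81 stayed within 1.5 times the main count. The number higher in proliferating glia, 6, was 3 with DESeq2, 2 with a mitochondrial limit of 5%, and 1 with the members not held out of clustering. The number changed in at least 1 glial cluster, 26, was 13 with the 5% limit, which leaves 2047 cells and 3 glial clusters, and 14 with members not held out. The number higher in neurons, 11, was 7 with members not held out, a setting that drops members used as variable genes from the tests. Without the library block the counts were 11 higher in neurons, 21 in fibroblasts, 7 in macrophages and 19 in glia, 26 changed in a glial cluster, and 6 higher and 10 lower in proliferating glia, as with the block. With macrophages left out, an alternative added after seeing the data, 11 members were higher in neurons, 20 in fibroblasts and 18 in glia. The log2 difference of proliferating glia turned sign for Mmp2 (0.22 with a limit of 20%, 0.30 with the highest doublet scores left out), Mmp14 (0.27 with the 5% limit, 0.10 at resolution 0.5), Adam10 (0.028), Timp1 (-0.071) and Adamts2 (-0.073), the last 3 with the 5% limit, and for Adamts2 also with members not held out (-0.022). Adam9 in glia was 0.33 with other cells pooled. The causes were not tested. The lower Timp2, Timp3, Adam11 and Adamts1 in proliferating glia held in every alternative with a test, in which Adamts5 no longer passed in 5 of 11, Adamts20 in 4 of 12 and Adam15 in 6 of 12. A single library gives values without a test. These kept their direction in 54 of 56 values for classes, 50 of 50 for glial clusters and 45 of 50 for proliferating glia. The classes and glial clusters were each member's highest, picked from the same 2 libraries. Their direction was therefore largely fixed in advance, which was not so for proliferating glia. The 82 macrophages limit what could be detected there: a gene with no UMI may have up to 3.46 CPM.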
